A study of Mus musculus with 10 samples.

Results

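The mitosis and cytokinesis genes described here are 57 genes whose products condense and hold chromosomes, build the spindle, check its attachments and split the cell. They were chosen by name, with earlier results of these data known. Each of the 57 symbols matched 1 of the 22165 Ensembl identifiers in the deposited count table. All 57 passed the filter on low counts that left 11614 genes for testing. By role they comprised 8 kinetochore genes, 10 spindle kinesins, 4 chromosome passenger genes, 4 checkpoint genes and 6 cytokinesis genes. The remainder were 9 kinases, cyclins and regulators of mitotic entry, 4 anaphase genes, 6 spindle assembly genes and 6 genes of chromosome structure, with Mki67 in the last group.

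The cells were macrophages of the peritoneal cavity of C57BL/6 mice, sorted with antibodies to CD64, ICAM-2 and CD115. Knockout (KO) mice carried LysM-Cre and a homozygous floxed gene. Wild-type (WT) mice, by the treatment notes, carried the same floxed gene without Cre, so both genotypes shared the floxed alleles and each genotype comparison also set Cre against no Cre. LysM-Cre is expressed from the Lyz2 locus in macrophages and neutrophils. Each mouse was injected intraperitoneally, with IL-4 complexed to an anti-IL-4 antibody or with saline (basal), and lavaged with 5 ml of PBS 36 hours later. Polyadenylated RNA gave 3 KO IL-4, 3 WT IL-4, 2 KO basal and 2 WT basal libraries. The labels do not say that replicates were separate animals, so every p-value measures the spread between these samples, which may be technical.

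In a dividing cell, cyclin B with CDK1 starts mitosis, and kinesins and assembly factors build the spindle. Kinetochores attach chromosomes to spindle microtubules, and the checkpoint delays anaphase until attachment is complete. The anaphase-promoting complex then marks securin and cyclin B for destruction, and the chromosome passenger complex and the central spindle direct cytokinesis. Transcripts of these genes are low in resting cells and accumulate in the G2 phase and mitosis. Resident peritoneal macrophages can renew by local division, and IL-4 delivered as a complex is known to make them divide.

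The libraries held 8762403 to 15024073 counted reads. Values are counts per 1000000 counts of the TMM-scaled library (CPM). Differences are log2 fold changes ± SE from edgeR's quasi-likelihood test with Benjamini-Hochberg adjustment over all tested genes. The SE was derived from the test, as the absolute log2 fold change over the square root of its F statistic. A gene was called at an adjusted p under 0.05. All 12 macrophage markers were detected in every group and summed to 8519 to 9811 CPM in KO IL-4, 11817 to 13160.2 in WT IL-4, 8520.5 to 15778 in KO basal and 28982 to 32238 in WT basal libraries. Without Lyz2, the locus that carries LysM-Cre, the other 11 summed to 5673 to 6063 CPM in KO IL-4, 5905 to 6114 in WT IL-4, 5856 to 6103 in KO basal and 7079 to 8638 in WT basal libraries. In bulk samples, fewer cells of a type and less RNA per cell cannot be told apart.

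KO basal replicate 1 held the lower value of its pair for 45 of the 57 genes, its median log2(CPM + 0.5) over the 57 was 1.09 against 2.15 in KO basal replicate 2, and 5 of the genes had no count in it. Markers of other cell types were also higher in KO basal libraries. Their 13 detected B cell markers summed to 1824 and 2090.2 CPM, against 269.9 and 446 CPM in WT basal libraries, and all 13 were called higher (median log2 3.14). Of 9 tested mast cell and basophil markers 4 were called higher, with sums of 191 and 317 CPM in KO basal and 133 and 83.1 CPM in WT basal libraries. Of 9 tested markers of small macrophages, monocytes and dendritic cells 4 were called higher, with sums of 954 and 1319 CPM in KO basal and 265 and 495 CPM in WT basal libraries. No marker of these 3 lists was at 0 in either basal group. After IL-4 the B cell markers summed to 775, 703 and 749 CPM in KO and 687, 736 and 639 CPM in WT libraries, and 0 of 13 were called between genotypes (0 at an unadjusted p under 0.05). Of the other lists, between basal genotypes 0 of 10 tested T and NK cell markers, 0 of 6 neutrophil, 1 of 2 eosinophil (Il5ra, higher in KO), 0 of 4 erythroid and 0 of 1 mesothelial and fibroblast markers were called. Ly6g, Camp, Ltf and Ngp of neutrophils were at 0 in both basal groups, and Prg2, Epx and Ear6 of eosinophils and Msln, Upk3b, Upk1b, Krt19 and Wt1 of mesothelium were at 0 in every group. After IL-4 the neutrophil markers S100a8 and S100a9 were called lower in KO, 2 of 6, and no marker of another list was called. Lyz2 was the 1 of 12 macrophage markers called between basal genotypes, lower in KO (log2 -1.88 ± 0.42, adjusted p = 0.0249). The part of these markers in the results on the mitosis genes was not tested.

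IL-4 was followed by higher levels of nearly all of the 57 genes, with a positive log2 for 56 in KO and 55 in WT macrophages. Their CPM values summed to 3428, 2513 and 3875 CPM in KO IL-4 libraries, 1716, 1992 and 2029 in WT IL-4, 785 and 908 in KO basal and 1119 and 1387 in WT basal libraries. In KO 50 of the 57 were called higher with IL-4 and 0 lower, where 4.09% of all tested genes were called higher and 3.51% lower. All KO IL-4 libraries lay above both KO basal libraries in 54 members, where 18.4% of all genes did so. The median log2 over the 57 was 2.91 and over all tested genes 0.00. In WT 12 were called higher and 0 lower, where 3.26% of all tested genes were called higher and 2.80% lower, with a median log2 of 1.21 over the 57 and 0.00 over all genes, and 44 members had all WT IL-4 libraries above both WT basal ones, where 20.8% of all genes did so. Without KO IL-4 replicate 1, 2 or 3, 47, 48 and 44 members were called in KO. In these fits 783, 899 and 622 of all genes were called, against 883 in the main fit. Fewer members and fewer of all genes were called without either KO basal library, which leaves 1 in that group. The median log2 over the 57 was then 2.56 without replicate 1 and 3.71 without replicate 2. In WT 6 members were called without WT IL-4 replicate 2 and 5 without WT IL-4 replicate 3. In these fits 340 and 378 of all genes were called, against 704 in the main fit. Fewer members and fewer of all genes were also called without either WT basal library, which leaves 1 in that group. The median log2 over the 57 was then 0.89 without replicate 1 and 1.39 without replicate 2. Markers of other cell types moved with IL-4 too. In KO, 12 of 13 B cell, 7 of 9 mast cell and basophil, 2 of 4 erythroid and 1 of 2 eosinophil markers were called lower, as was 1 of 12 macrophage markers, while of 9 markers of small macrophages, monocytes and dendritic cells 2 were called higher and 1 lower. In WT, 5 of 13 B cell markers and 4 of 9 of small macrophages, monocytes and dendritic cells were called higher, 3 of 9 mast cell and basophil markers lower, 2 of 6 neutrophil markers higher and 1 lower, and 1 of 12 macrophage markers higher and 3 lower.

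**Figure D1:**
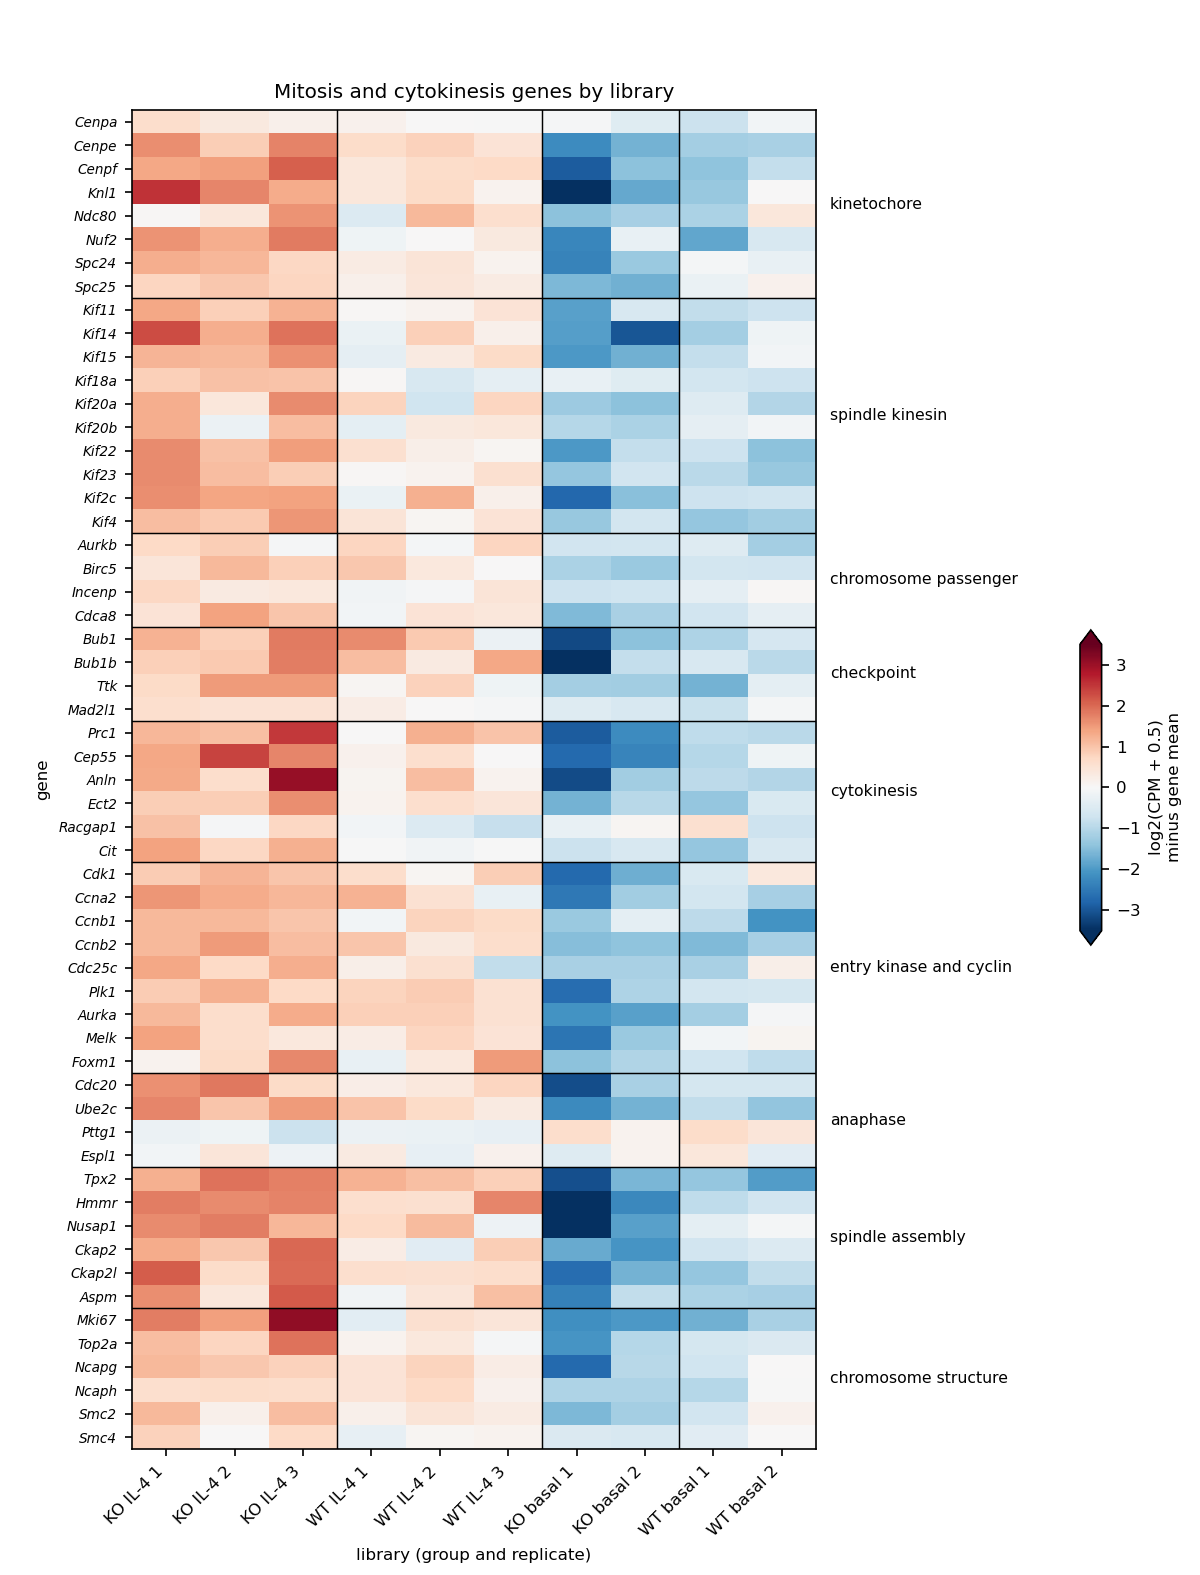
Level of each of the 57 genes (rows, grouped by role) in each of the 10 libraries (columns), as log2(CPM + 0.5) minus the gene's mean over libraries; colours saturate at the ends of the bar. Most rows are red in the 3 KO IL-4 libraries and blue in the basal libraries, with KO basal replicate 1 the bluest, and the rows of Pttg1 and Espl1 depart from this.

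After IL-4 most of the genes had a higher level in KO than in WT, and 2 of the 57 differences passed the test. The log2 difference was positive for 55 of the 57, where 51.7% of all tested genes were positive, and its median was 0.81 over the 57 and 0.02 over all genes. Mki67 and Cep55 were called higher, 2 of 57, where 0.353% of all tested genes were called higher, and 0 were called lower, where 0.474% of all genes were. At an unadjusted p under 0.05 there were 30 members, where 14.4% of all genes reached it. The 3 KO IL-4 libraries lay above all 3 WT IL-4 libraries in 31 members, where 9.57% of all genes did so. No member was called without WT IL-4 replicate 1, 2 or 3, where 21, 54 and 40 of all genes were called. Without KO IL-4 replicate 3, 1 member and 50 of all genes were called, and without KO IL-4 replicate 2, 5 members and 109. The main fit called 96 genes in all. DESeq2 called 12 members, and edgeR called 19 with no filter on low counts and 4 in a fit of the IL-4 libraries alone, where Mki67 was not called (adjusted p = 0.0619). Over all genes these settings called 385, 505 and 116, against 96 in the main fit.

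Under basal conditions most of the genes had a lower level in KO than in WT. Of the 57 genes 7 were called lower in KO and 0 higher, where 1.53% of all tested genes were called lower and 2.61% higher. The 7 were Spc24, Spc25, Kif15, Cep55, Cdk1, Hmmr and Nusap1. The median log2 was -0.88 over the 57 and -0.02 over all genes, and 8 of the 57 had a positive value, where 48.8% of all genes did. Both KO basal libraries lay below both WT basal libraries in 36 members, where 24.5% of all genes did so. Leaving out a basal library leaves 1 in its group. Fewer members and fewer of all genes were called without WT basal replicate 2 or KO basal replicate 1. More members and fewer of all genes were called without KO basal replicate 2. The median log2 was -0.63 without KO basal replicate 1, -1.42 without KO basal replicate 2 and -0.73 without WT basal replicate 2. DESeq2 called 13 members, and edgeR called 18 with no filter and 1 in a fit of the basal libraries alone. Over all genes these settings called 841, 1034 and 378, against 481 in the main fit. The B cell markers moved the opposite way, all 13 called higher in KO basal libraries.

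The interaction, that is, how far the change with IL-4 in KO exceeded the change in WT, passed its test for 14 members with a larger response in KO and for 0 with a smaller one. Of all tested genes 1.02% were called with a larger response in KO and 1.78% with a smaller one. The median difference was log2 1.60 over the 57 and 0.01 over all genes. This test uses the same libraries as the 4 comparisons above and is not independent of them. Only 6 members were called without WT IL-4 replicate 1, and 9 without KO IL-4 replicate 3, WT IL-4 replicate 2 or WT IL-4 replicate 3. In these fits 212, 269, 263 and 235 of all genes were called, against 326 in the main fit. Fewer members and fewer of all genes were also called without KO basal replicate 1 or WT basal replicate 2, which leaves 1 library in the group. The median difference was then log2 1.31 and 1.48. Of the 13 B cell markers all had a lower IL-4 response in KO, and 12 were called. Called lower for the interaction were also 3 of 9 markers of small macrophages, monocytes and dendritic cells, 2 of 9 mast cell and basophil, 2 of 6 neutrophil, 1 of 2 eosinophil and 1 of 4 erythroid markers, with 0 called higher in any of these lists.

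**Figure D2:**
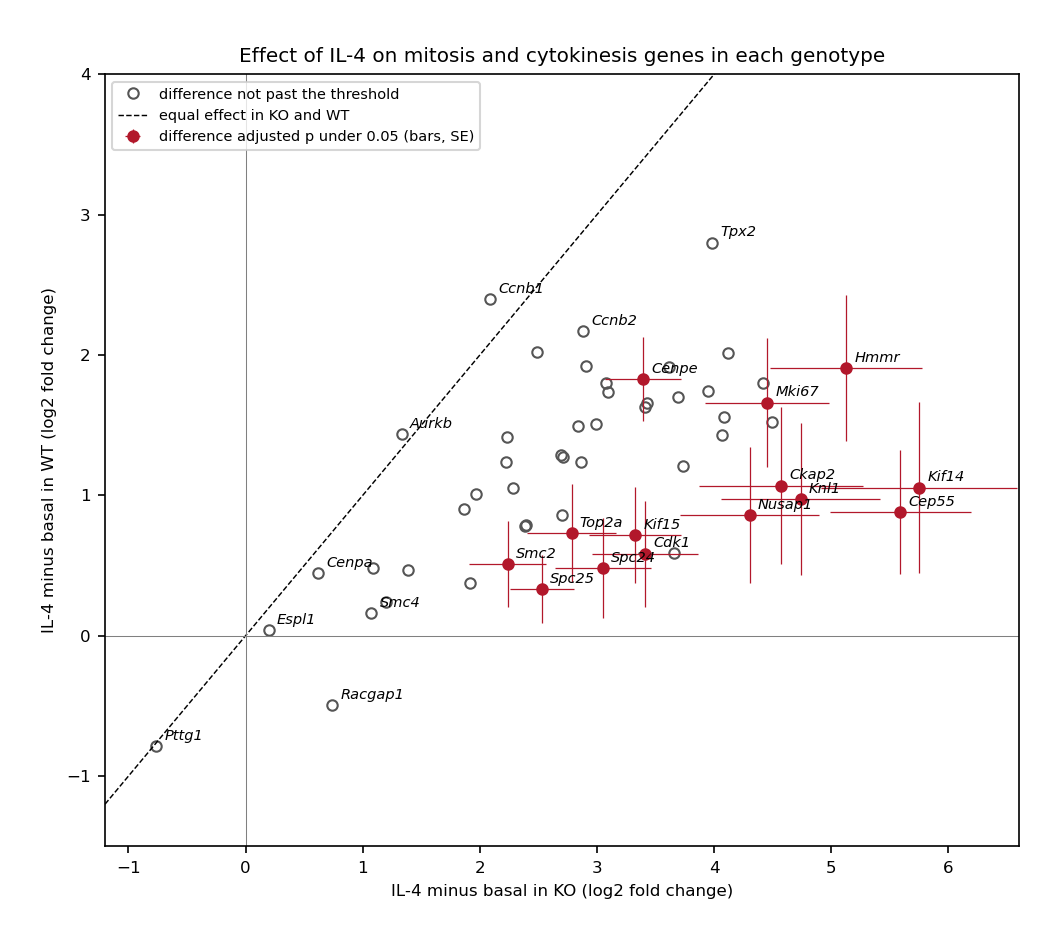
Log2 fold change with IL-4 in KO (x axis) and in WT (y axis) for each gene, coloured by the test of the interaction, with the dashed line marking equal effects; Cdc25c, with no count in KO basal libraries, is not drawn. Most points lie right of the dashed line, Cep55 at 5.59 in KO and 0.88 in WT, while Ccnb1 (2.09 in KO, 2.40 in WT) and Aurkb (1.33 and 1.44) lie left of it and Pttg1 (-0.76 and -0.79) close to it.

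Many mitotic genes share 2 short promoter elements, the cell cycle genes homology region (CHR), bound by the MuvB core of the DREAM complex, and the CCAAT box, bound by NF-Y. RefSeq promoter windows of build GRCm38.p6, from 250 bases before to 50 bases after the gene start, were found for 48 of the 57 genes. The 7 windows below, cut to 180 bases from 150 before to 30 after the start, show members on which the results turn. Capitals mark TTTGAA or TTTAAA, the hexamers of the CHR, and CCAAT, each on either strand (TTCAAA and ATTGG are the opposite strand). All 7 windows hold such a match, and windows without one are not printed.
Mki67: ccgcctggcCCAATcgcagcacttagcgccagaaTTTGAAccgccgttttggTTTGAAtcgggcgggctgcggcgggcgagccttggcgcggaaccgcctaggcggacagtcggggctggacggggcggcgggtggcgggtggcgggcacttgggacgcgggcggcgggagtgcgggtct
Cep55: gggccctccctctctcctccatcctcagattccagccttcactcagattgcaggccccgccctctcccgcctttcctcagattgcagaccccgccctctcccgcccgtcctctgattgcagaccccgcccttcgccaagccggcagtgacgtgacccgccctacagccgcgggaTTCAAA
Spc25: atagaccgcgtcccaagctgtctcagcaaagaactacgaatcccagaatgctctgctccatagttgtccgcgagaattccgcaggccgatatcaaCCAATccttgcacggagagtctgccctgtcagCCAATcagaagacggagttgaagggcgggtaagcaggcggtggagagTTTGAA
Kif15: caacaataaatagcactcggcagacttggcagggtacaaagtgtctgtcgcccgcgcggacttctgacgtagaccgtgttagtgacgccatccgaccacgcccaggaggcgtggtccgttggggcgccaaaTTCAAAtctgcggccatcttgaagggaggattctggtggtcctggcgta
Cdk1: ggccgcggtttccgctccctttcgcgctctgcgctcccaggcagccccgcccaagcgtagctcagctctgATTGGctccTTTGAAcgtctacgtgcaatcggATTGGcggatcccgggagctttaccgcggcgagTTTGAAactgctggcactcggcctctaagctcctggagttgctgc
Ccnb1: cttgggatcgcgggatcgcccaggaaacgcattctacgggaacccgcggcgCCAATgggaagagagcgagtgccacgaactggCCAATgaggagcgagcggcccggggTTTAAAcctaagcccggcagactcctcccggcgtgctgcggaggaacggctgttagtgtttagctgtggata
Ube2c: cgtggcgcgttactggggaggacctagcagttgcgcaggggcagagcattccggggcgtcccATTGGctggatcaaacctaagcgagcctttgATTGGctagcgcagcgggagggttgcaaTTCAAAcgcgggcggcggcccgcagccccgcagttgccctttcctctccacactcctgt
The windows lie at chr7:135716350-135716529 on the minus strand (Mki67), chr19:38054834-38055013 on the plus strand (Cep55, 1 of its 2 windows) and chr2:69206184-69206363 on the minus strand (Spc25). That of Kif15 is chr9:122950931-122951110 on the plus strand, that of Cdk1 chr10:69352883-69353062 on the minus strand and that of Ccnb1 chr13:100786457-100786636 on the minus strand. That of Ube2c is chr2:164769779-164769958 on the plus strand. The starts are those of RefSeq. They lay within 50 bases of a GENCODE M21 transcript start for 45 of the 48 genes, and more than 50 bases inside the outermost such start for 9, among them Ccnb1 (84 bases) and Pttg1 (270 bases, not printed).

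TTTGAA was in the 300-base window of 36 of the 48 genes (75%), against 1338 of 9200 tested genes with a window (14.54%) and 20.23% of all 27025 genes in the promoter table. CCAAT was in 32 (66.67%), against 43.36% of tested genes, and both were in 29 (60.42%), against 7.185%. TTTAAA was in 11 (22.92%), against 10.86%. Around the start, the 51 windows of the 48 genes held 31.37 TTTGAA matches per 100 promoters in the first 25 bases after it and 17.65 in the next 25, against 0.76 and 0.60 in other tested genes. Cdk1 held TTTGAA 71 and 15 bases before its start, with CCAAT at 80 and 48 bases before. Ccnb1 held TTTAAA 42 bases before, with CCAAT at 99 and 67 bases before. Espl1 held both TTTGAA and CCAAT and was not called with IL-4. The 36 members with TTTGAA had a median IL-4 effect of log2 3.09 in KO and 1.24 in WT, and the 12 without it 2.16 in KO and 0.96 in WT. Of these 12, Cenpe, Birc5 and Ccnb1 held TTTAAA. The 9 members with no window had medians of log2 2.91 in KO and 1.24 in WT. A relation of the hexamer to the IL-4 effect was not tested. A match describes letters and is not evidence of binding.

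**Figure D3:**
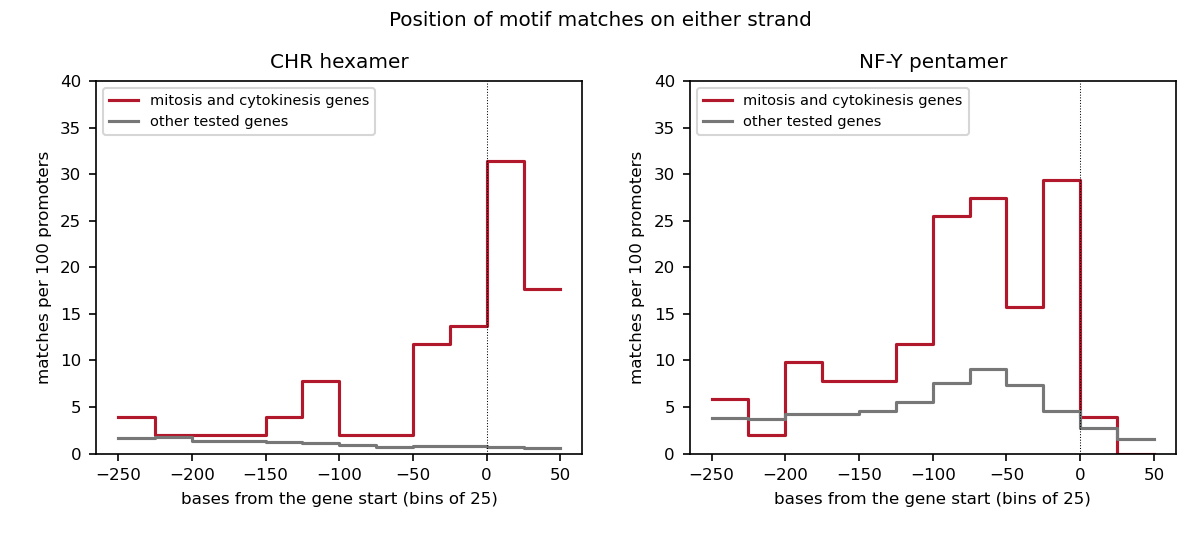
Matches per 100 promoters (y axis) of the CHR hexamer TTTGAA and the NF-Y pentamer CCAAT by distance from the gene start (x axis, bins of 25 bases, either strand), for 51 windows of the mitosis and cytokinesis genes (red) and for other tested genes (grey). CHR matches of the mitosis genes are densest from 0 to 50 bases after the start, at 31.37 and 17.65 per 100 promoters.

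Kinetochore genes rose with IL-4 in KO, 7 of 8 called, and Cenpa was the exception. Their summed level was 486, 390.3 and 547 CPM in KO IL-4 libraries, 243, 282 and 249.7 in WT IL-4, 58.2 and 76.4 in KO basal and 94.9 and 134 in WT basal libraries. The KO IL-4 libraries were highest and the KO basal libraries lowest, without overlap. Spc25 (ENSMUSG00000005233, chromosome 2, 69193895 to 69206194), a subunit of the NDC80 complex that grips microtubules, had 42.1, 48.8 and 42.8 CPM in KO IL-4 libraries, 28.5, 33.97 and 30.5 in WT IL-4, 8.003 and 7.42 in KO basal and 21.2 and 28.01 in WT basal libraries. All 4 groups were apart from each other. Spc25 was 5.78-fold higher with IL-4 in KO (log2 2.53 ± 0.27, adjusted p = 5.29e-05), and its log2 difference was 0.33 with IL-4 in WT (adjusted p = 0.471). Under basal conditions it was 3.19-fold lower in KO (log2 -1.67 ± 0.28, adjusted p = 0.00243), the one member whose basal call held without any single library. Its IL-4 effect was larger in KO by log2 2.20 ± 0.35 (adjusted p = 0.00287), which also held without any single library.

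Its partner Spc24 (ENSMUSG00000074476, chromosome 9, 21755442 to 21760303) had 20.2, 18.7 and 13.6 CPM in KO IL-4 libraries, 9.897, 11.2 and 8.75 in WT IL-4, 1.19 and 2.95 in KO basal and 7.65 and 6.59 in WT basal libraries. KO basal libraries were lowest and KO IL-4 libraries highest, with no overlap of groups. Spc24 was 8.28-fold higher with IL-4 in KO (log2 3.05 ± 0.41, adjusted p = 3.04e-04) and 3.37-fold lower in KO under basal conditions (log2 -1.75 ± 0.43, adjusted p = 0.0298). The interaction was log2 2.57 ± 0.53, adjusted p = 0.0135. The basal call was lost without KO basal replicate 1 (adjusted p = 0.245), WT basal replicate 1 (0.0885) or WT basal replicate 2 (0.0691), and the interaction without KO basal replicate 1 (0.0795).

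Knl1, the scaffold that recruits checkpoint proteins to the outer kinetochore, had 56.1, 31.4 and 23.6 CPM in KO IL-4 libraries, 12.4, 15.2 and 10.2 in WT IL-4, 0.324 and 2.33 in KO basal and 3.400 and 9.42 in WT basal libraries. The KO basal libraries were lowest, and KO IL-4 libraries were above all others. It was 26.7-fold higher with IL-4 in KO (log2 4.74 ± 0.68, adjusted p = 8.32e-04) and its IL-4 effect was larger in KO (log2 3.77, adjusted p = 0.0255). The interaction was lost without WT basal replicate 2 (adjusted p = 0.150), KO basal replicate 1 (0.0851), WT IL-4 replicate 1 (0.0645) or WT IL-4 replicate 3 (0.0559).

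Cenpe, a kinesin of the kinetochore that moves chromosomes to the spindle equator, had 170.1, 98.1 and 182 CPM in KO IL-4 libraries, 84.9, 96.1 and 75.05 in WT IL-4, 11.5 and 16.99 in KO basal and 23.5 and 24.6 in WT basal libraries. Both IL-4 groups were above both basal groups. Cenpe rose with IL-4 in KO (log2 3.39 ± 0.33, adjusted p = 2.34e-05) and in WT (log2 1.83 ± 0.30, adjusted p = 0.00249), and both calls held without any single library. The interaction was log2 1.57 (adjusted p = 0.0493), and it held in 1 of the 10 fits that left out a library, that without KO IL-4 replicate 2, with adjusted p up to 0.233 without KO basal replicate 1. Cenpf, a large coiled-coil protein of the outer kinetochore, also rose in KO (log2 3.69 ± 0.43, adjusted p = 1.38e-04) and in WT (log2 1.70 ± 0.39, adjusted p = 0.0186). The WT call of Cenpf was lost without WT basal replicate 1 (adjusted p = 0.140), WT basal replicate 2 (0.0629), WT IL-4 replicate 2 (0.0587) or WT IL-4 replicate 3 (0.0521). Nuf2 (log2 2.69 ± 0.59, adjusted p = 0.0122) and Ndc80 (log2 2.39 ± 0.67, adjusted p = 0.0454), subunits of the same NDC80 complex as Spc25, rose with IL-4 in KO. Nuf2 lost this call without KO basal replicate 1 (adjusted p = 0.0836), and Ndc80 lost it without KO basal replicate 1 (0.249) or 2 (0.215), KO IL-4 replicate 3 (0.134) or WT IL-4 replicate 3 (0.0635). Cenpa, the histone H3 variant that marks centromeres, had 45.3, 37.6 and 33.3 CPM in KO IL-4 libraries, 32.9, 29.9 and 29.03 in WT IL-4, 28.7 and 21.8 in KO basal and 17.4 and 27.5 in WT basal libraries. Its IL-4 effect was log2 0.62 in KO (adjusted p = 0.190) and 0.45 in WT. Among kinetochore genes 0 of 8 were called between genotypes after IL-4 and 6 had an unadjusted p under 0.05, with log2 from 0.28 for Ndc80 to 1.57 for Nuf2 and the smallest p in Cenpf (log2 1.09 ± 0.33, adjusted p = 0.138).

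All 10 spindle kinesins were called higher with IL-4 in KO, and 2 of 10, Kif23 and Kif4, in WT. In WT all 10 had a positive log2. Kinesins of this group slide, cross-link or shorten spindle microtubules. Their summed level was 363, 233 and 306 CPM in KO IL-4 libraries, 130.3, 152 and 182 in WT IL-4, 47.5 and 67.4 in KO basal and 77.2 and 82.2 in WT basal libraries. No IL-4 library overlapped a basal one, and the KO IL-4 libraries were above the WT IL-4 libraries. Kif14 (ENSMUSG00000041498, chromosome 1, 136466343 to 136531511), a kinesin of the midbody, had 18.9, 9.14 and 14.2 CPM in KO IL-4 libraries, 2.88, 6.58 and 4.01 in WT IL-4, 0.541 and 0 in KO basal and 1.23 and 3.08 in WT basal libraries. It was near or at no counts in KO basal libraries. Kif14 was 53.8-fold higher with IL-4 in KO (log2 5.75 ± 0.84, adjusted p = 6.33e-04), the largest fitted change among members with counts in both groups. In WT its change was log2 1.06 ± 0.61, adjusted p = 0.347, and the interaction was log2 4.69 ± 1.03, adjusted p = 0.0212. The interaction was lost without WT basal replicate 2 (adjusted p = 0.114), KO basal replicate 2 (0.0851) or WT IL-4 replicate 1 (0.0548).

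Kif15 (ENSMUSG00000036768, chromosome 9, 122951046 to 123018733), which helps Kif11 keep the spindle poles apart, had 32.3, 30.6 and 42.5 CPM in KO IL-4 libraries, 11, 17.2 and 22.3 in WT IL-4, 3.03 and 3.94 in KO basal and 7.55 and 12.8 in WT basal libraries. KO basal libraries were below WT basal ones and KO IL-4 libraries above WT IL-4 ones. Kif15 was 2.92-fold lower in KO under basal conditions (log2 -1.54 ± 0.40, adjusted p = 0.0400), 10.03-fold higher with IL-4 in KO (log2 3.33 ± 0.39, adjusted p = 1.05e-04), and log2 0.72 with IL-4 in WT (adjusted p = 0.240). Its interaction was log2 2.61 ± 0.50, adjusted p = 0.00862, and it was lost without KO basal replicate 1 (adjusted p = 0.0553). The basal call was lost without WT basal replicate 2 (adjusted p = 0.289), KO basal replicate 1 (0.245), KO basal replicate 2 (0.126) or WT IL-4 replicate 2 (0.0588).

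Kif23, the kinesin of the centralspindlin complex that sets up cytokinesis, had 125, 84.3 and 72.4 CPM in KO IL-4 libraries, 40.9, 43.6 and 59.3 in WT IL-4, 15.2 and 24.6 in KO basal and 20.3 and 15.7 in WT basal libraries. Kif23 rose with IL-4 in KO (log2 2.23 ± 0.33, adjusted p = 5.52e-04) and in WT (log2 1.41 ± 0.31, adjusted p = 0.0153), and the WT call was lost without WT basal replicate 2 (adjusted p = 0.134) or WT IL-4 replicate 3 (0.0595). Kif4, a chromosome-bound kinesin, rose in KO (log2 2.49 ± 0.50, adjusted p = 0.00645) and in WT (log2 2.02 ± 0.51, adjusted p = 0.0278). The KO call of Kif4 was lost without KO basal replicate 1 (adjusted p = 0.0867), and its WT call without WT basal replicate 1 (0.132), WT basal replicate 2 (0.126), WT IL-4 replicate 1 (0.0694) or WT IL-4 replicate 3 (0.0784). Kif11, the plus-end motor that separates the poles (log2 2.28 ± 0.37, adjusted p = 0.00131), Kif2c, which depolymerizes microtubules at centromeres (log2 4.50 ± 0.80, adjusted p = 0.00281), and Kif22, a chromosome-arm motor (log2 2.99 ± 0.49, adjusted p = 0.00157), rose in KO and kept their calls without any single library. KO basal replicates 1 and 2 held only 0 and 8 counts of Kif2c, so its change rests on few reads. Kif20a and Kif20b, motors of the central spindle, rose by log2 2.86 and 1.92 in KO, and each lost its call without KO basal replicate 1 (adjusted p = 0.0625 and 0.0732) or 2 (0.0806 and 0.0976).

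Kif18a, which dampens chromosome movement at the spindle equator, had 10.3, 11.9 and 11.5 CPM in KO IL-4 libraries, 5.75, 3.59 and 4.32 in WT IL-4, 4.54 and 4.03 in KO basal and 3.400 and 3.17 in WT basal libraries. The KO IL-4 libraries were above all others, and the KO basal libraries were slightly above the WT basal ones, the one member with that order and no overlap. Kif18a rose with IL-4 in KO (log2 1.39 ± 0.37, adjusted p = 0.0321), a call lost without KO basal replicate 1 (adjusted p = 0.143) or 2 (0.211) or KO IL-4 replicate 1 (0.0516), 2 (0.0637) or 3 (0.0741). After IL-4 no kinesin was called between genotypes and 7 of 10 had an unadjusted p under 0.05, with log2 from 0.68 for Kif20b to 1.63 for Kif14, all 10 positive, and the smallest p in Kif18a (log2 1.30 ± 0.32, adjusted p = 0.0653).

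The 4 chromosome passenger genes form the complex that corrects attachments and then guides cytokinesis. Their summed level was 353, 309 and 299 CPM in KO IL-4 libraries, 215, 223 and 299.7 in WT IL-4, 125 and 129 in KO basal and 171 and 216 in WT basal libraries, most of it from Incenp. KO basal libraries were lowest, and the KO and WT IL-4 libraries overlapped. Cdca8, the borealin subunit, had 26.2, 50.2 and 37.1 CPM in KO IL-4 libraries, 17.6, 26.3 and 24.9 in WT IL-4, 6.06 and 8.32 in KO basal and 11.5 and 14.99 in WT basal libraries. The IL-4 libraries were above the basal ones and overlapped between genotypes. Cdca8 rose with IL-4 in KO (log2 2.39 ± 0.35, adjusted p = 5.36e-04) and had the smallest p of the group for the interaction (log2 1.60 ± 0.45, adjusted p = 0.0736). Birc5, survivin (log2 2.22 ± 0.41, adjusted p = 0.00359), and Incenp, the scaffold of the complex (log2 1.20 ± 0.24, adjusted p = 0.00704), also rose in KO, so that 3 of 4 were called. Birc5 lost its call without KO basal replicate 2 (adjusted p = 0.0551), and Incenp without KO basal replicate 1 (0.0749) or 2 (0.0689). Aurkb, the Aurora B kinase of the complex, had 9.75, 10.98 and 5.61 CPM in KO IL-4 libraries, 10.1, 5.52 and 9.99 in WT IL-4, 3.46 and 3.49 in KO basal and 4.06 and 2.23 in WT basal libraries. Its IL-4 effect was log2 1.33 in KO (adjusted p = 0.0832) and 1.44 in WT (adjusted p = 0.0720), with an interaction of log2 -0.10, below 0. In WT 0 of 4 passed, with the smallest p in Birc5 (log2 1.24 ± 0.39, adjusted p = 0.0718). Between genotypes 0 of 4 passed, with log2 from 0.05 for Aurkb to 0.72 for Cdca8 after IL-4 (Cdca8 adjusted p = 0.249) and from -0.88 for Cdca8 to 0.15 for Aurkb under basal conditions (Cdca8 adjusted p = 0.202).

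Of the 4 checkpoint genes 3 were called higher with IL-4 in KO and 0 of 4 in WT. In WT all 4 had a positive log2 and all WT IL-4 libraries above both WT basal ones. The summed level was 53.6, 58.9 and 85 CPM in KO IL-4 libraries, 54.6, 41.4 and 46.02 in WT IL-4, 9.301 and 15.6 in KO basal and 15.6 and 21.4 in WT basal libraries. Every IL-4 library was above every basal one, and the KO and WT IL-4 libraries overlapped. Bub1, a kinase that marks centromeres and recruits checkpoint proteins, had 9.85, 7.45 and 15.2 CPM in KO IL-4 libraries, 13.6, 7.85 and 3.397 in WT IL-4, 0 and 1.16 in KO basal and 1.61 and 2.48 in WT basal libraries. It was 17.3-fold higher with IL-4 in KO (log2 4.12 ± 0.85, adjusted p = 0.00997), and in WT it had the smallest p of the group (log2 2.01 ± 0.72, adjusted p = 0.122). Ttk, the MPS1 kinase that starts checkpoint signalling, had 9.65, 17.2 and 17.5 CPM in KO IL-4 libraries, 6.18, 10.6 and 5.25 in WT IL-4, 2.27 and 2.24 in KO basal and 1.51 and 4.54 in WT basal libraries. Ttk rose in KO (log2 2.71 ± 0.51, adjusted p = 0.00435), a call lost without KO basal replicate 2 (adjusted p = 0.0552), and its difference between genotypes after IL-4 was not called (log2 1.004 ± 0.40, adjusted p = 0.263). Bub1b, the BubR1 protein that inhibits the anaphase-promoting complex, rose in KO (log2 3.08 ± 0.76, adjusted p = 0.0301) and lost this call without KO IL-4 replicate 1 (adjusted p = 0.0524) or 3 (0.0720), WT basal replicate 1 (0.0725) or WT basal replicate 2 (0.0719). Mad2l1, which binds Cdc20 while kinetochores are unattached, was not called in KO (log2 1.09 ± 0.32, adjusted p = 0.0519). Under basal conditions and for the interaction 0 of 4 passed, with the smallest p in Bub1 (log2 -1.72 ± 0.91, adjusted p = 0.356) and in Ttk (log2 1.44 ± 0.68, adjusted p = 0.328).

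Of the 6 cytokinesis genes, Cep55 was called in both genotype comparisons. Their summed level was 182, 138 and 321 CPM in KO IL-4 libraries, 78.8, 117 and 90.4 in WT IL-4, 32.6 and 45.6 in KO basal and 62.5 and 45.5 in WT basal libraries. KO IL-4 libraries were above all others, with replicate 3 highest. Cep55 (ENSMUSG00000024989, chromosome 19, 38055011 to 38074423), a midbody protein that recruits the machinery of abscission, had 11.7, 23.9 and 15.1 CPM in KO IL-4 libraries, 4.74, 6.58 and 4.32 in WT IL-4, 0.216 and 0.447 in KO basal and 1.89 and 3.77 in WT basal libraries. The 4 groups did not overlap, with KO IL-4 highest, WT IL-4 next, then WT basal, and KO basal lowest. Cep55 was 3.22-fold higher in KO after IL-4 (log2 1.69 ± 0.37, adjusted p = 0.0461) and 8.13-fold lower in KO under basal conditions (log2 -3.02 ± 0.64, adjusted p = 0.0134). With IL-4 it was 48.2-fold higher in KO (log2 5.59 ± 0.60, adjusted p = 5.29e-05) and log2 0.88 in WT (adjusted p = 0.271). KO basal replicates 1 and 2 held only 2 and 5 counts of Cep55. Every fold change against that group, and the interaction, rests on these few reads. Its interaction of log2 4.71 ± 0.73 (adjusted p = 0.00240) held without any single library.

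The call of Cep55 after IL-4 was lost without WT IL-4 replicate 1 (adjusted p = 0.208), 2 (0.0859) or 3 (0.181) or KO IL-4 replicate 2 (0.136) or 3 (0.0990). Its basal call was lost without KO basal replicate 1 (adjusted p = 0.122), KO basal replicate 2 (0.0601) or WT basal replicate 2 (0.105).

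Prc1, which bundles the microtubules of the central spindle, had 45.9, 42.5 and 116 CPM in KO IL-4 libraries, 20.6, 48.8 and 41.2 in WT IL-4, 2.27 and 4.03 in KO basal and 10.9 and 10.3 in WT basal libraries. Prc1 rose with IL-4 in KO (log2 4.42 ± 0.56, adjusted p = 3.44e-04) and in WT (log2 1.80 ± 0.48, adjusted p = 0.0419). The WT call of Prc1 was lost in 6 of 10 fits that left out a library, without WT IL-4 replicate 2 (adjusted p = 0.121) or 3 (0.0968), KO basal replicate 1 (0.0516) or 2 (0.0527) or WT basal replicate 1 (0.171) or 2 (0.218). Anln, the anillin scaffold of the contractile ring, had 31.6, 19.2 and 105 CPM in KO IL-4 libraries, 13.2, 26.7 and 13.5 in WT IL-4, 0.973 and 5.01 in KO basal and 6.33 and 5.82 in WT basal libraries. Its value in KO IL-4 replicate 3 stood above the other KO IL-4 libraries, and it rose with IL-4 in KO (log2 4.08 ± 0.84, adjusted p = 0.0136). Ect2, the exchange factor that activates RhoA at the furrow (log2 2.84 ± 0.55, adjusted p = 0.00493), and Cit, the citron kinase of the midbody (log2 1.87 ± 0.33, adjusted p = 0.00273), rose as well, so that 5 of 6 were called in KO. Anln lost its call without KO basal replicate 1 (adjusted p = 0.118) or WT basal replicate 2 (0.0501), and Ect2 without KO basal replicate 1 (0.0707). Racgap1, the partner of Kif23 in centralspindlin, had 51.7, 24.6 and 42.3 CPM in KO IL-4 libraries, 23.8, 18.02 and 14.2 in WT IL-4, 20.98 and 26.3 in KO basal and 37.8 and 14.99 in WT basal libraries. The IL-4 and basal libraries overlapped in both genotypes, and its IL-4 effect was log2 0.74 ± 0.39, adjusted p = 0.281 in KO and log2 -0.50 ± 0.38, adjusted p = 0.504 in WT.

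**Figure D4:**
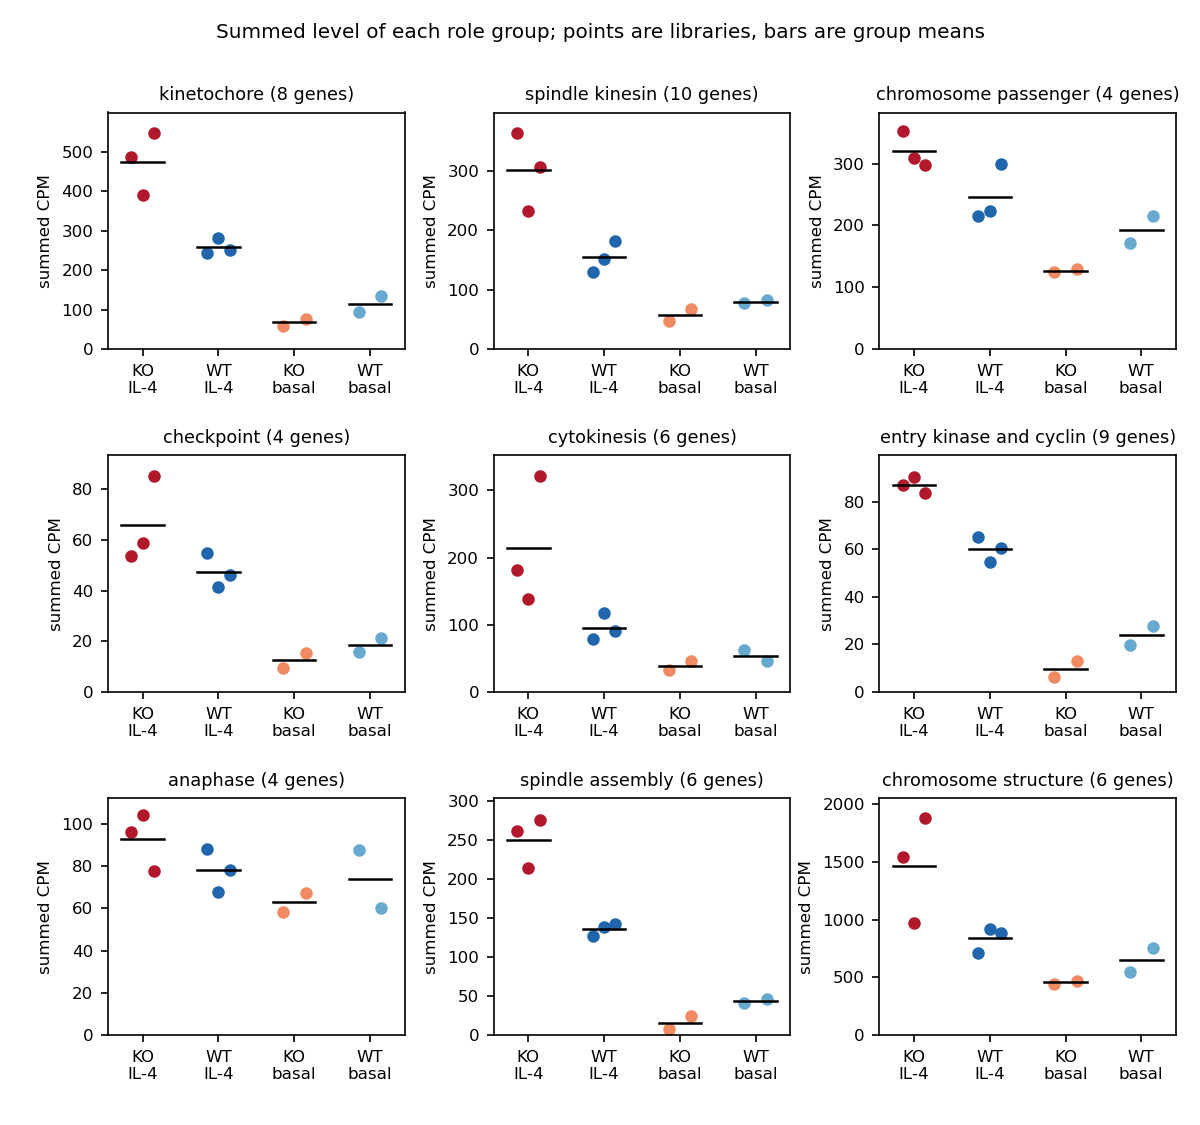
Summed CPM (y axis, from 0) of the genes of each role in each library, with points for libraries and bars for group means, in the order KO IL-4, WT IL-4, KO basal and WT basal. The KO IL-4 mean is the highest in every panel, 474 against 258 CPM in WT IL-4 libraries for kinetochore genes, while the checkpoint, anaphase and chromosome passenger libraries overlap between the IL-4 genotypes.

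Of the 9 kinases, cyclins and regulators of mitotic entry, 8 were called higher with IL-4 in KO and 2, Ccnb1 and Ccnb2, in WT. All 9 had a positive log2 in both genotypes. The summed level was 87.1, 90.4 and 83.5 CPM in KO IL-4 libraries, 65.05, 54.7 and 60.5 in WT IL-4, 6.16 and 12.9 in KO basal and 19.8 and 27.7 in WT basal libraries. Cdk1 (ENSMUSG00000019942, chromosome 10, 69335146 to 69352938), the kinase that drives mitosis, had 18.7, 23.2 and 19.6 CPM in KO IL-4 libraries, 15.2, 10.4 and 18.3 in WT IL-4, 1.08 and 2.68 in KO basal and 6.61 and 12.8 in WT basal libraries. The KO IL-4 libraries were above the WT IL-4 ones, and KO basal libraries were below WT basal ones, where 1 library lay within the WT IL-4 range. Cdk1 was 10.7-fold higher with IL-4 in KO (log2 3.41 ± 0.45, adjusted p = 2.72e-04) and not called in WT (log2 0.58 ± 0.38, adjusted p = 0.409). It was 5.07-fold lower in KO under basal conditions (log2 -2.34 ± 0.47, adjusted p = 0.00906), not called after IL-4 (log2 0.49 ± 0.33, adjusted p = 0.524), and its interaction was log2 2.83 ± 0.57, adjusted p = 0.0120. The basal call was lost without KO basal replicate 1 (adjusted p = 0.109) or WT basal replicate 2 (0.0875), and the interaction likewise (0.0765 and 0.0634).

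For the cyclin B genes the interaction was not called. Ccnb1 had 7.41, 7.45 and 6.57 CPM in KO IL-4 libraries, 2.88, 5.72 and 5.25 in WT IL-4, 0.973 and 2.33 in KO basal and 1.42 and 0.343 in WT basal libraries. Both IL-4 groups were above both basal groups, and KO and WT basal libraries overlapped. Ccnb1 rose with IL-4 in KO (log2 2.09 ± 0.59, adjusted p = 0.0419) and in WT (log2 2.40 ± 0.63, adjusted p = 0.0342), with log2 0.63 between genotypes after IL-4 (adjusted p = 0.576) and 0.93 under basal conditions (adjusted p = 0.533), and an interaction of log2 -0.31 (adjusted p = 0.908). The KO call of Ccnb1 was lost in 7 of 10 fits that left out a library, with adjusted p from 0.0597 without WT IL-4 replicate 2 to 0.269 without KO basal replicate 1. Its WT call was lost without WT basal replicate 2 (adjusted p = 0.234), WT IL-4 replicate 2 (0.107) or 3 (0.0891).

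Ccnb2 had 19.9, 25.3 and 18.8 CPM in KO IL-4 libraries, 17.7, 11.1 and 13.6 in WT IL-4, 2.81 and 2.95 in KO basal and 2.64 and 3.597 in WT basal libraries. Its level rose with IL-4 in KO (log2 2.88 ± 0.35, adjusted p = 1.56e-04) and in WT (log2 2.17 ± 0.34, adjusted p = 0.00196), and both calls held without any single library. After IL-4 its difference between genotypes had the smallest p of the group (log2 0.60 ± 0.27, adjusted p = 0.329). Ccna2, cyclin A2 (log2 3.43 ± 0.57, adjusted p = 0.00168), and Aurka, the Aurora A kinase of spindle poles (log2 4.07 ± 0.64, adjusted p = 9.77e-04), rose in KO and kept the call without any single library. KO basal replicates 1 and 2 held only 3 and 5 counts of Aurka and 5 and 23 of Ccna2, so these changes rest on few reads. Plk1, the polo-like kinase, Melk, the maternal embryonic leucine zipper kinase, and Foxm1, a transcription factor of G2 genes, rose by log2 3.41, 3.66 and 2.91 in KO, and each lost its call without KO basal replicate 1 (adjusted p = 0.0642, 0.0817 and 0.221). Foxm1 also lost it without KO basal replicate 2 (adjusted p = 0.159), KO IL-4 replicate 3 (0.150) or WT IL-4 replicate 2 (0.0549). Cdc25c, the phosphatase that activates CDK1, had no count in KO basal libraries, 67 counts over the KO IL-4 libraries, and 0 and 9 counts in the 2 WT basal libraries. With the KO basal group set to 3 counts in all, it was at least 13.2-fold higher with IL-4 in KO (adjusted p = 0.0565), which was not called. Between basal genotypes, where 1 WT library was also at 0, it was not called (adjusted p = 0.302) and no fold is given. Such a floor covers counting error only.

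The 4 anaphase genes split. Ube2c, the ubiquitin-conjugating enzyme of the anaphase-promoting complex, had 28.4, 16.9 and 24.5 CPM in KO IL-4 libraries, 17.3, 13.7 and 10.5 in WT IL-4, 1.41 and 2.33 in KO basal and 4.44 and 2.91 in WT basal libraries. Ube2c rose with IL-4 in KO (log2 3.62 ± 0.42, adjusted p = 9.33e-05) and in WT (log2 1.91 ± 0.38, adjusted p = 0.00729), with the WT call lost without WT basal replicate 2 (adjusted p = 0.0883). Cdc20, the activator of that complex, rose in KO (log2 3.74 ± 0.67, adjusted p = 0.00344). Pttg1 (ENSMUSG00000020415, chromosome 11, 43420250 to 43426251), securin, the inhibitor of separase, had 15.7, 16.1 and 10.5 CPM in KO IL-4 libraries, 15.7, 15.3 and 14.8 in WT IL-4, 28.1 and 19.9 in KO basal and 28.2 and 24.5 in WT basal libraries. All IL-4 libraries were below all basal libraries, and the genotypes overlapped. Its IL-4 effect was log2 -0.76 ± 0.28, adjusted p = 0.107 in KO and log2 -0.79 ± 0.27, adjusted p = 0.103 in WT, which did not pass. Espl1, separase itself, had 36.6, 52.8 and 34.7 CPM in KO IL-4 libraries, 49.5, 32.3 and 44.3 in WT IL-4, 28.8 and 43.4 in KO basal and 51.8 and 29.9 in WT basal libraries. Its libraries overlapped across all groups, with an IL-4 effect of log2 0.20 ± 0.31, adjusted p = 0.760 in KO. Between genotypes 0 of 4 were called, the smallest p being that of Ube2c after IL-4 (log2 0.75 ± 0.30, adjusted p = 0.269) and under basal conditions (log2 -0.96 ± 0.44, adjusted p = 0.266), and so too for the interaction (log2 1.71 ± 0.53, adjusted p = 0.111).

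All 6 spindle assembly genes were called higher with IL-4 in KO and 3 in WT, where all 6 log2 values were positive. Their summed level was 263, 215 and 276 CPM in KO IL-4 libraries, 128, 138 and 142 in WT IL-4, 7.14 and 23.97 in KO basal and 40.8 and 46.1 in WT basal libraries. KO basal libraries were lowest and KO IL-4 libraries highest, with no overlap of groups. Tpx2, which activates Aurora A on the spindle, had 37.4, 59.3 and 53.8 CPM in KO IL-4 libraries, 37.3, 32.8 and 28.5 in WT IL-4, 1.41 and 4.83 in KO basal and 5.76 and 3.68 in WT basal libraries. It rose 15.8-fold in KO (log2 3.98 ± 0.45, adjusted p = 9.12e-05) and 6.97-fold in WT (log2 2.80 ± 0.42, adjusted p = 0.00126), and both calls held without any single library. Hmmr, a spindle protein and hyaluronan receptor, had 38.5, 35.2 and 37.01 CPM in KO IL-4 libraries, 16.4, 16.2 and 36.8 in WT IL-4, 0.108 and 1.88 in KO basal and 5.57 and 6.68 in WT basal libraries. WT IL-4 replicate 3 lay within the KO IL-4 range, and the other WT IL-4 libraries below it. Hmmr rose in KO (log2 5.13 ± 0.65, adjusted p = 3.43e-04) and in WT (log2 1.91 ± 0.52, adjusted p = 0.0459), was lower in KO under basal conditions (log2 -2.54 ± 0.66, adjusted p = 0.0470), and had an interaction of log2 3.22 ± 0.78, adjusted p = 0.0430. The call of Hmmr was lost in 8 of 10 fits that left out a library for the basal difference, with adjusted p up to 0.192 without WT basal replicate 2, in 8 for the interaction, up to 0.138 without the same library, and in 7 for IL-4 in WT, up to 0.217 without WT basal replicate 1.

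Nusap1 (ENSMUSG00000027306, chromosome 2, 119618298 to 119651244), which stabilizes microtubules near chromosomes, had 64.8, 70.8 and 45.99 CPM in KO IL-4 libraries, 33.4, 44.7 and 17.8 in WT IL-4, 0.865 and 5.098 in KO basal and 15.9 and 19.4 in WT basal libraries. WT IL-4 replicate 3 lay between the WT basal libraries, and KO basal libraries were lowest. It was 5.77-fold lower in KO under basal conditions (log2 -2.53 ± 0.58, adjusted p = 0.0289), rose with IL-4 in KO (log2 4.30 ± 0.59, adjusted p = 6.44e-04), and its interaction was log2 3.45 ± 0.72, adjusted p = 0.0200. The basal call was lost without WT basal replicate 2 (adjusted p = 0.149), KO basal replicate 1 (0.113) or WT basal replicate 1 (0.0717), and the interaction without WT basal replicate 2 (0.0868) or 1 (0.0519). Ckap2 (log2 4.57 ± 0.70, adjusted p = 8.06e-04), Ckap2l (log2 3.95 ± 0.48, adjusted p = 1.71e-04) and Aspm, a spindle pole protein (log2 3.10 ± 0.59, adjusted p = 0.00633), rose in KO. KO basal replicates 1 and 2 held only 4 and 3 counts of Ckap2. Aspm lost the call without KO basal replicate 1 (adjusted p = 0.0707). Ckap2l also rose in WT (log2 1.75 ± 0.42, adjusted p = 0.0245), a call lost in 5 fits that left out a library, with adjusted p up to 0.161 without WT basal replicate 1. Ckap2 had an interaction of log2 3.50 ± 0.87, adjusted p = 0.0416, which was lost in 7 of 10 such fits, with adjusted p up to 0.180 without KO basal replicate 2. After IL-4 the smallest p between genotypes was that of Ckap2l (log2 1.13 ± 0.35, adjusted p = 0.153).

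The 6 genes of chromosome structure all rose with IL-4 in KO, and Mki67 alone was called in WT. Mki67 (ENSMUSG00000031004, chromosome 7, 135689784 to 135716361), which coats mitotic chromosomes and is the common marker of dividing cells, had 164, 129 and 412 CPM in KO IL-4 libraries, 36.6, 69.9 and 62.9 in WT IL-4, 10.2 and 11.3 in KO basal and 14.4 and 21.2 in WT basal libraries. The groups did not overlap, and KO IL-4 replicate 3 was far above the other KO IL-4 libraries. Mki67 was 21.9-fold higher with IL-4 in KO (log2 4.45 ± 0.53, adjusted p = 2.29e-04) and 3.16-fold higher in WT (log2 1.66 ± 0.46, adjusted p = 0.0490). It was 4.15-fold higher in KO after IL-4 (log2 2.05 ± 0.39, adjusted p = 0.0282), not called between basal genotypes (log2 -0.73 ± 0.49, adjusted p = 0.487), and its interaction was log2 2.79 ± 0.63, adjusted p = 0.0297. The call after IL-4 held without KO IL-4 replicate 3 (adjusted p = 0.0477) and was lost without WT IL-4 replicate 1 (0.141), 2 (0.0599) or 3 (0.0974). The interaction was lost in 5 of 10 fits that left out a library, with adjusted p up to 0.149 without KO basal replicate 1, and the WT call in 6, with adjusted p up to 0.252 without WT basal replicate 1.

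Top2a, the topoisomerase that untangles sister chromatids, had 213, 167 and 375 CPM in KO IL-4 libraries, 109, 129 and 97.9 in WT IL-4, 23.5 and 49.6 in KO basal and 64.6 and 70.3 in WT basal libraries. KO IL-4 libraries were above all others and KO basal libraries below all others. Top2a rose with IL-4 in KO (log2 2.78 ± 0.38, adjusted p = 4.49e-04) and its IL-4 effect was larger in KO (log2 2.05 ± 0.49, adjusted p = 0.0350), a call lost in 7 of 10 fits that left out a library, with adjusted p up to 0.154 without KO basal replicate 1. Smc2 and Smc4 form the core of condensin, and per kilobase of exon Smc4 had the highest level of the 57 genes in every group. Smc2 had 221, 114 and 213 CPM in KO IL-4 libraries, 115, 138 and 124 in WT IL-4, 33.5 and 43.9 in KO basal and 63.9 and 112 in WT basal libraries. It rose in KO (log2 2.24 ± 0.33, adjusted p = 6.04e-04), its basal difference had the smallest p of the group (log2 -1.19 ± 0.34, adjusted p = 0.0629), and its interaction was log2 1.73 ± 0.43, adjusted p = 0.0419, which was lost in 8 of 10 such fits, with adjusted p up to 0.199 without WT basal replicate 2. Smc4 rose 2.11-fold in KO (log2 1.08 ± 0.25, adjusted p = 0.0164), the smallest called change of the 57. Ncapg and Ncaph, further condensin subunits, rose by log2 2.70 and 1.97. Smc4 lost its call without KO basal replicate 1 (adjusted p = 0.110) or 2 (0.137), and Ncaph without KO basal replicate 1 (0.137), KO basal replicate 2 (0.155) or KO IL-4 replicate 3 (0.0513).

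**Figure D5:**
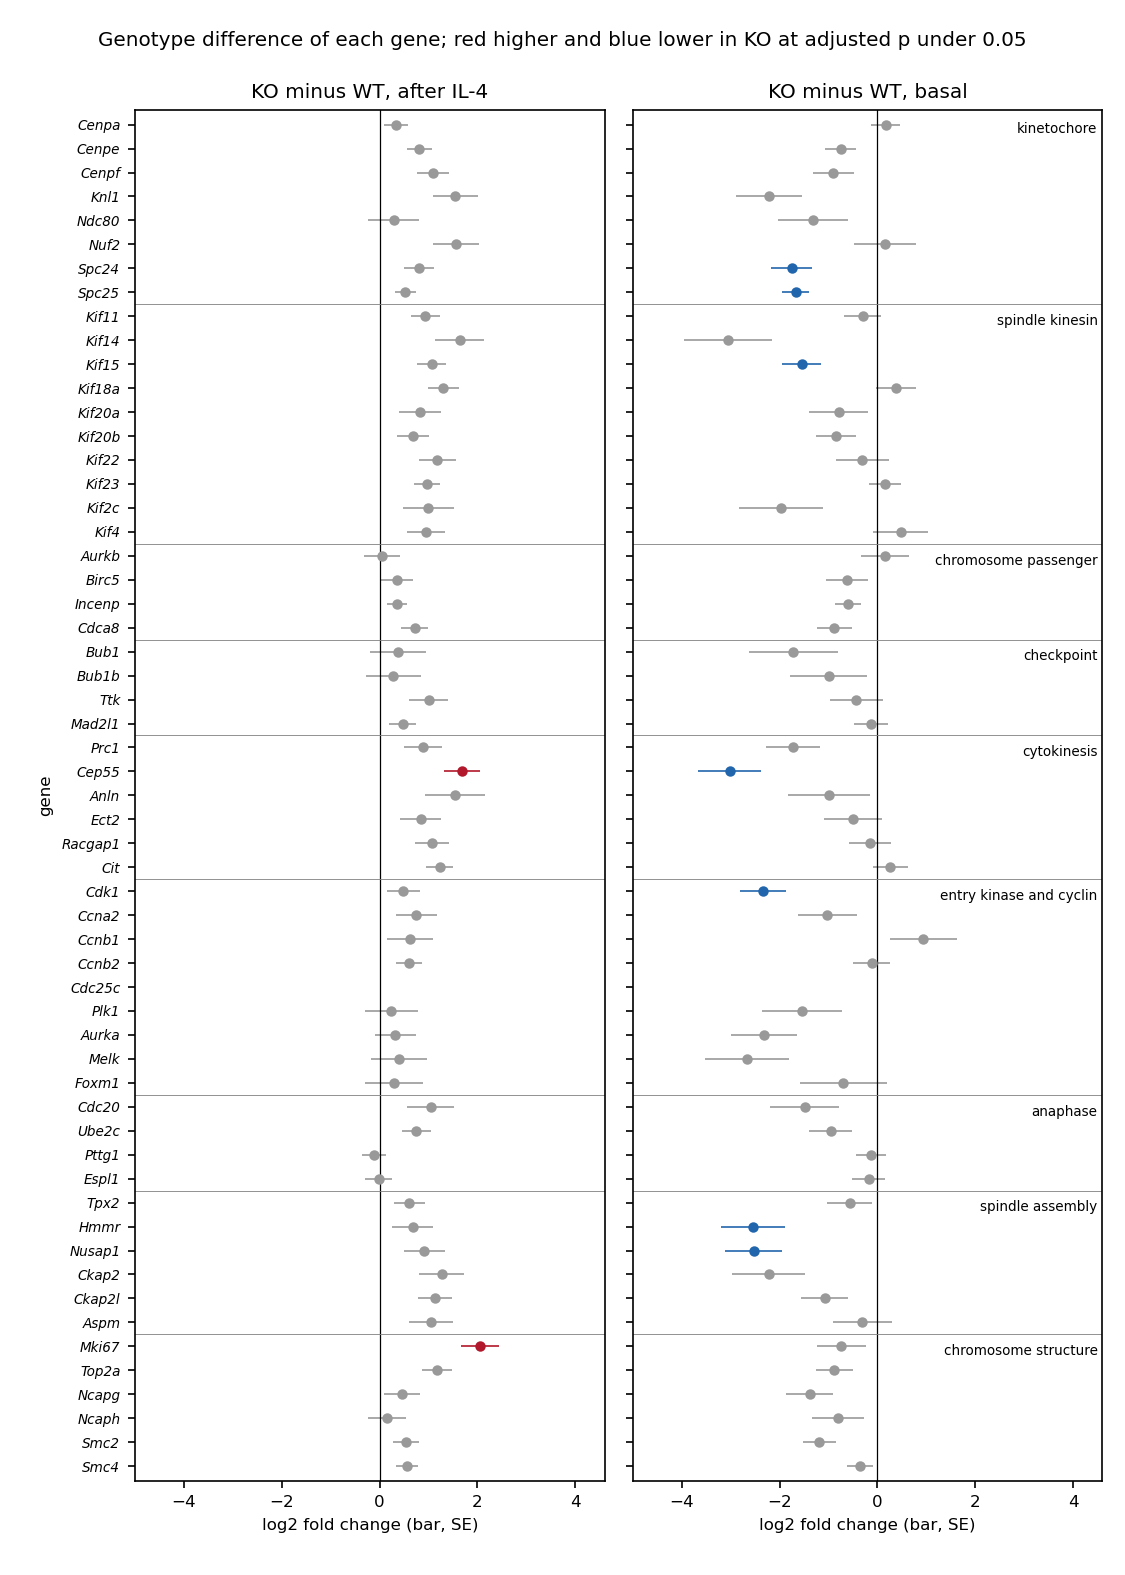
Log2 difference between KO and WT (x axis, bars are SE) of each gene after IL-4 (left) and under basal conditions (right), grouped by role, with called genes coloured; Cdc25c is not drawn. After IL-4 nearly all points lie right of 0, with Cep55 at 1.69 and Mki67 at 2.05 called, and under basal conditions most lie left of 0, with 7 called.

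Levels per kilobase of exon ordered the genes differently from their changes. In KO IL-4 libraries the means were 147 CPM per kilobase for Smc4, 60.3 for Incenp, 33.4 for Smc2 and 27.9 for Top2a, and the lowest was 0.393 for Cdc25c. In KO basal libraries Smc4 had 69.97, Incenp 26.2 and Pttg1 11.99 CPM per kilobase, while Kif14 had 0.0261. Smc4 and Incenp carried much of the basal sum and had called IL-4 changes of 2.11-fold and 2.297-fold in KO. Of the 57 genes 11 overlap another protein-coding gene of the table, 10 of them on the opposite strand (Kif18a, Kif20a, Kif4, Prc1, Ccna2, Cdc25c, Cdc20, Ube2c, Nusap1 and Ncapg) and Foxm1 on the same strand. The strand setting of the counting is not given in the sources used here, so reads of the overlapping gene cannot be told apart. Kif22, Kif4, Ccnb1 and Ccnb2 have annotated pseudogene copies that could share reads.

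Other genes of mitosis and of DNA replication, taken from lists chosen for this comparison, also held genes that rose with IL-4 in KO. Of 78 other mitotic genes 24 were called higher and 0 lower with IL-4 in KO (median log2 1.22), where 4.09% of all tested genes were called higher, and 5 higher and 0 lower in WT (0.66), where 3.26% were called higher. Between genotypes 0 were called after IL-4 (median log2 0.48, 16 at an unadjusted p under 0.05), 1 was called higher and 2 lower under basal conditions (-0.26), and 1 was called higher for the interaction (0.61). Of all tested genes 0.353% were called higher and 0.474% lower after IL-4, and 14.4% had an unadjusted p under 0.05. Under basal conditions 2.61% of them were called higher and 1.53% lower, and for the interaction 1.02% higher. The counts of called genes were thus near the background. Cdca2, a phosphatase targeting subunit of chromatin, rose in KO (log2 2.83 ± 0.30, adjusted p = 5.11e-05) and in WT (log2 1.92 ± 0.29, adjusted p = 0.00120), and so did Cdca3, an adaptor that promotes mitotic entry (log2 3.23 ± 0.42, adjusted p = 2.55e-04 in KO, and log2 2.65 ± 0.41, adjusted p = 0.00146 in WT). Sgo1, shugoshin, which protects cohesin at centromeres, was lower in KO under basal conditions (log2 -1.87 ± 0.47, adjusted p = 0.0376) and had a larger IL-4 effect in KO (log2 2.46 ± 0.59, adjusted p = 0.0330), while Ncapg2 of condensin II was next (log2 2.05 ± 0.54, adjusted p = 0.0534). Hjurp, the chaperone that loads Cenpa, was higher in KO under basal conditions (log2 1.17 ± 0.28, adjusted p = 0.0270). After IL-4 the smallest p-values between genotypes were those of Ncapd3, also of condensin II (log2 0.87 ± 0.21, adjusted p = 0.0622), and Trip13, which disassembles checkpoint complexes (log2 1.91 ± 0.50, adjusted p = 0.0895).

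Of 42 DNA replication genes 12 were called higher and 0 lower with IL-4 in KO (median log2 1.13), where 4.09% of all tested genes were called higher. In WT 0 were called (0.09), where 3.26% of all tested genes were called higher. Between genotypes 0 were called after IL-4 (0.32, 10 at an unadjusted p under 0.05), 0 higher and 2 lower under basal conditions (-0.36), and 3 higher for the interaction (0.93). The shares of all tested genes after IL-4 were 0.353% higher, 0.474% lower and 14.4% at an unadjusted p under 0.05. They were 2.61% higher and 1.53% lower under basal conditions and 1.02% higher for the interaction. Clspn, claspin of the replication checkpoint, was lower in KO under basal conditions (log2 -1.60 ± 0.38, adjusted p = 0.0261), rose with IL-4 in KO (log2 3.27 ± 0.38, adjusted p = 9.33e-05) and had a larger IL-4 effect in KO (log2 2.63 ± 0.47, adjusted p = 0.00598). Ccne2, cyclin E2, was also lower in KO under basal conditions (log2 -1.99 ± 0.39, adjusted p = 0.00851), rose with IL-4 in KO (log2 2.39 ± 0.37, adjusted p = 9.99e-04) and had a larger IL-4 effect in KO (log2 2.42 ± 0.49, adjusted p = 0.0123). With IL-4 in WT the smallest p-values were those of Tyms, thymidylate synthase (log2 0.97 ± 0.29, adjusted p = 0.0628), and Gins3 of the replicative helicase (log2 -1.07 ± 0.35, adjusted p = 0.0835). Between genotypes after IL-4 they were those of Lig1, DNA ligase I (log2 0.87 ± 0.22, adjusted p = 0.0702), and Pola1 of DNA polymerase alpha (log2 1.22 ± 0.31, adjusted p = 0.0803).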

How the data were processed

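RNA-seq libraries of sorted peritoneal macrophages were analysed from the table of whole-number read counts per gene that the authors deposited. STAR, HTSeq and mm10 are named in the submitters' processing notes, and versions, annotation and strand setting are not given in the sources used here. Symbols came from GENCODE M21, which lacked 420 of the 22165 identifiers. No 2 replicates agreed within sampling noise.

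Counts were scaled by TMM, filtered with filterByExpr (minimum count 10, minimum total 15) and tested with edgeR 4.0.16 in R 4.3.3 (robust quasi-likelihood, 4 group means, 6 residual degrees of freedom, two-sided, Benjamini-Hochberg adjustment over 11614 genes). The scripts were tested on simulated data. CPM values use the scaled library totals, which were 8762403 to 15024073 counts before scaling, and at this depth 3 counts are the floor for a group at 0. Genes past an adjusted p of 0.05 are named for each role, or else that with the smallest p, with Mki67, Cdk1 and Ccnb1 in every comparison. Further genes were named after their values were seen.

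The genes and lists were chosen with earlier results of these data known. Alternatives were RLE size factors, library totals, no filter, DESeq2 1.42.0, a dispersion that is not robust, a replicate block, only the groups compared, and leaving out each library. Promoters are RefSeq sequences of GRCm38.p6. The floxed gene is not reported here.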

Additional observations from a re-analysis of the deposited data

Results flagged for a closer look

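The test of the interaction passed for 14 of the 57 genes, and each is listed because the IL-4 effect differed between KO and WT. All 14 differences were positive, that is, the IL-4 effect was larger in KO. The values are log2 differences from edgeR's quasi-likelihood test, adjusted over all genes. Cep55 had 4.71 ± 0.73 (adjusted p = 0.00240) and Spc25 2.20 ± 0.35 (adjusted p = 0.00287), and both kept the call when any single library was left out. Kif15 had 2.61 (adjusted p = 0.00862), Cdk1 2.83 (0.0120), Spc24 2.57 (0.0135), Nusap1 3.45 (0.0200), Kif14 4.69 (0.0212) and Knl1 3.77 (0.0255). Mki67 had 2.79 (adjusted p = 0.0297), Top2a 2.05 (0.0350), Ckap2 3.50 (0.0416), Smc2 1.73 (0.0419), Hmmr 3.22 (0.0430) and Cenpe 1.57 (0.0493). The other 12 each lost the call without at least 1 library. KO basal libraries enter every one of these differences. Their replicates 1 and 2 held only 2 and 5 counts of Cep55, 4 and 3 of Ckap2 and 5 and 0 of Kif14. They held 3 and 26 counts of Knl1, 1 and 21 of Hmmr and 8 and 57 of Nusap1. The B cell markers of KO basal libraries summed to 1824 and 2090.2 CPM, against 269.9 and 446 CPM in WT basal libraries. Their part in the differences was not tested.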

How the results depend on the processing

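The median log2 over the 57 genes kept its sign in all 5 comparisons under every alternative run. Without each library in turn it ranged from 0.68 to 0.82 for KO against WT after IL-4, -1.42 to -0.63 for KO against WT basal, 2.56 to 3.71 for IL-4 in KO, 0.89 to 1.39 for IL-4 in WT and 1.31 to 2.35 for the interaction. Members called ranged from 0 to 5, 1 to 12, 34 to 51, 3 to 14 and 4 to 18 in that order, and all genes called from 21 to 129, 208 to 550, 327 to 931, 302 to 764 and 182 to 397. With no filter on low counts, members called were 19 against 2 after IL-4, 18 against 7 basal, 21 against 12 for IL-4 in WT and 26 against 14 for the interaction. All genes called were then 505 against 96, 1034 against 481, 1423 against 883 for IL-4 in KO, 1209 against 704 and 819 against 326. DESeq2 called 12, 13 and 19 members after IL-4, basal and for IL-4 in WT, and 385, 841, 1144 and, for the interaction, 594 genes in all. A fit of only the groups compared, which has fewer samples, called 4 members after IL-4 and 1 basal, and 116 and 378 genes in all. The cause of the other changes was not tested.

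Same-numbered libraries had correlations of deviations from -0.11 to 0.06. With so few libraries a group, and no comparison with differently numbered libraries, these values cannot tell whether replicate numbers pair the samples. With the replicate number as a block, 2, 8, 44, 8 and 15 members were called in the 5 comparisons, in the order above. All genes called were then 83, 387, 554, 474 and 282, against 96, 481, 883, 704 and 326 in the main fit. The Ccnb1 interaction of log2 -0.31, not called, was 0.47 without KO basal replicate 2, 0.39 without WT basal replicate 2 and -1.64 without WT basal replicate 1. Over the named genes, fits without 1 library left 892 values on their side of the threshold, took 171 out of the call, brought 5 into it and reversed 2. Library totals in place of TMM moved the median log2 of all genes to 0.13 basal, -0.10 for IL-4 in KO and -0.17 for the interaction. With 2 basal libraries a group and 8762403 to 15024073 counts a library, depth and replicate number limit the test of the lowest members, such as Cdc25c.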
